A study of Homo sapiens with 4 samples.

Results

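The glycolysis and hypoxia response genes are a list of 42 genes drawn up by function. It holds glucose and lactate transporters, glycolytic enzymes, regulators of glycolytic flux, the hypoxia-inducible factors (HIF) with their oxygen sensors, and genes that hypoxia is known to induce. Of the 42, 39 were measured by 1 probe set each, out of 17687 genes with a named probe set. SLC16A3, PFKFB4 and CA9 were not named by the probe annotation used here and were not analysed.

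The RNA came from KGN, a line established from a human granulosa cell tumour, and was hybridised to 4 Clariom S arrays, 1 per group. In the groups siNC and siNC+8Br-cAMP the cells carried a control siRNA at 10 nM, and in siYT and siYT+8Br-cAMP siRNAs against YAP and TAZ at 5 nM each. The medium was changed 48 h after transfection, and for the following 24 h it contained 8Br-cAMP, a membrane-permeable cyclic AMP analogue, at 0.5 mM in 2 of the groups and none in the other two. Every group was transfected and grown in medium with serum, so no array stands for untransfected cells, and the labels name no low-oxygen treatment.

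Glycolysis breaks glucose down to pyruvate in the cytosol, and granulosa cells are known to supply the oocyte with pyruvate and lactate. HIF1A and EPAS1 encode the oxygen-regulated HIF subunits. Prolyl hydroxylases mark these proteins for destruction through VHL when oxygen is present, and without oxygen they pair with ARNT and bind a short core, ACGTG or GCGTG, in their target genes. Many glycolytic enzymes and transporters are HIF targets themselves, so the roles used below are functional and do not separate targets from other genes. YAP and TAZ are the transcriptional coactivators that the Hippo pathway holds back.

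The promoters of 3 hypoxia-induced signals that stood lower in the combined treatment than their single differences add up to, and of 2 glycolytic enzymes that differed little, are shown because both kinds carry the HIF core. The 250 bases before the RefSeq start are printed 5′ to 3′ on the gene's strand (GRCh38.p14), and the capitals mark each ACGTG or GCGTG on either strand. ADM lies on the plus strand at chr11:10304823-10305072, ANKRD37 on the plus strand at chr4:185396591-185396840 and KDM3A, by the first of its 2 entries, on the plus strand at chr2:86441121-86441370. ENO1 lies on the minus strand at chr1:8878687-8878936 and PGK1 on the plus strand at chrX:78103998-78104247.
ADM: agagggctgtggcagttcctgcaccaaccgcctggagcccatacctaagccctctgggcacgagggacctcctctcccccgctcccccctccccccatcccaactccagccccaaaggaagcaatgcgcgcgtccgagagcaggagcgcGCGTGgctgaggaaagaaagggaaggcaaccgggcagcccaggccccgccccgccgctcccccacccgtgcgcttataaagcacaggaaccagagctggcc
ANKRD37: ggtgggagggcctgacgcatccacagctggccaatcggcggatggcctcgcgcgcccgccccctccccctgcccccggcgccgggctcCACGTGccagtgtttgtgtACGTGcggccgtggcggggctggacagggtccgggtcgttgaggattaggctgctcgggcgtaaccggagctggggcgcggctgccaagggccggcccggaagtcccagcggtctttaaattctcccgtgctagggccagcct
KDM3A: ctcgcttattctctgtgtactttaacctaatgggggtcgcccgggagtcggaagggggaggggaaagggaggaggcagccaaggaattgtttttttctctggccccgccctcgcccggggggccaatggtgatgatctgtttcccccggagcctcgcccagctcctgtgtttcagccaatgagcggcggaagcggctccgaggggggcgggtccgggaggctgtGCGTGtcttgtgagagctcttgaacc
ENO1: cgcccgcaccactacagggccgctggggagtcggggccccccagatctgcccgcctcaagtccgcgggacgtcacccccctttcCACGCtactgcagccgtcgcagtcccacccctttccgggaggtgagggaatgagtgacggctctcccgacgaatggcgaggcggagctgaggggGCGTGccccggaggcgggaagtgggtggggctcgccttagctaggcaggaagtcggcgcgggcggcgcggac
PGK1: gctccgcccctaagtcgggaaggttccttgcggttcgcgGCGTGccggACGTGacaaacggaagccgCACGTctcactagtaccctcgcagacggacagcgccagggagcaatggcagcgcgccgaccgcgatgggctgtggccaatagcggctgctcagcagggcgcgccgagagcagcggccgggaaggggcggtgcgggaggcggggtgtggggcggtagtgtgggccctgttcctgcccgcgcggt
ANKRD37 and PGK1 each had 3 matches, of which 2 in ANKRD37 overlap within CACGTG. ENO1 had 2 matches, and ADM and KDM3A had 1 each. Of the 39 measured members, 33 had a promoter entry, and the first entry of a gene was used. Among the 9 measured hypoxia-induced signals, NDRG1, VEGFA and BNIP3L had no entry. The HIF core stood in 20 of these 33 (60.6%), in 9 of 16 enzymes and in 6 of 6 hypoxia-induced signals, against 50.6% of the 14250 array genes with an entry. The cyclic AMP response core TGACG, which can overlap the HIF core as TGACGTG, stood in 10 of 33 members and in 25.6% of array genes. The TEAD motif GGAATG, which YAP and TAZ reach through TEAD proteins, stood in 2 of 33, ENO1 and PGAM1, and in 10.0% of array genes. These are matches of letters in a short window, not binding sites.

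All levels are deposited log2 units and each difference is between single arrays, so no difference could be set against a spread between cultures and none has a p-value. Calling a gene took a difference of at least 1 (2-fold if the units are log2 signals) and a higher level of at least 6.22. That level filter is the median over the values of every named gene. The 95th percentile of the array's negative control probe sets, 6.53 to 7.29 by array, served as a stricter mark of background. Of the 39 members, 31 were over the filter on all 4 arrays, and ALDOC, ANGPTL4, EGLN3, PDK3 and PFKFB2 were under it on all 4. The levels of different genes are not compared, since each rests on its own probes. The siRNA targets were lower as labelled: YAP1 was at 9.48 in siNC and 6.80 in siYT, against 9.46 and 6.29 with 8Br-cAMP. WWTR1, the TAZ gene, was at 7.58 and 5.45, against 9.13 and 5.35. The siYT levels of both genes were under the negative control percentile. With that percentile as the floor, the siRNA differences without and with 8Br-cAMP are -2.19 and -2.49 for YAP1 and -0.29 and -2.16 for WWTR1. These are minimum sizes, so the lower WWTR1 level without 8Br-cAMP has little measurable size. WWTR1 was also 2.94-fold higher with 8Br-cAMP after siNC, a call. The 2197 positive control probe sets had a median difference of -0.36 for siYT without 8Br-cAMP and -0.35 with it, and of 0.01 and 0.04 for 8Br-cAMP. Among 9 measured granulosa markers, GATA4 and WT1 were over the filter on all arrays, CYP19A1, FSHR and NR5A1 on some, and FOXL2, AMHR2, INHA and NR5A2 on none. By the negative control percentile, WT1 was under background on 3 arrays, FSHR and NR5A1 on 4 and CYP19A1 on 1, siNC. The 3 theca and 2 endothelial markers were under the filter throughout, while of the 2 immune markers PTPRC was under it and CD68, also a lysosomal protein of other cells, was at 10.77, 10.33, 12.69 and 13.15 in siNC, siNC+8Br-cAMP, siYT and siYT+8Br-cAMP. CD68 thus differed with the siRNA, and its part in the results was not tested. In RNA from whole cultures, fewer cells with a transcript and less of it per cell cannot be told apart.

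**Figure D1:**
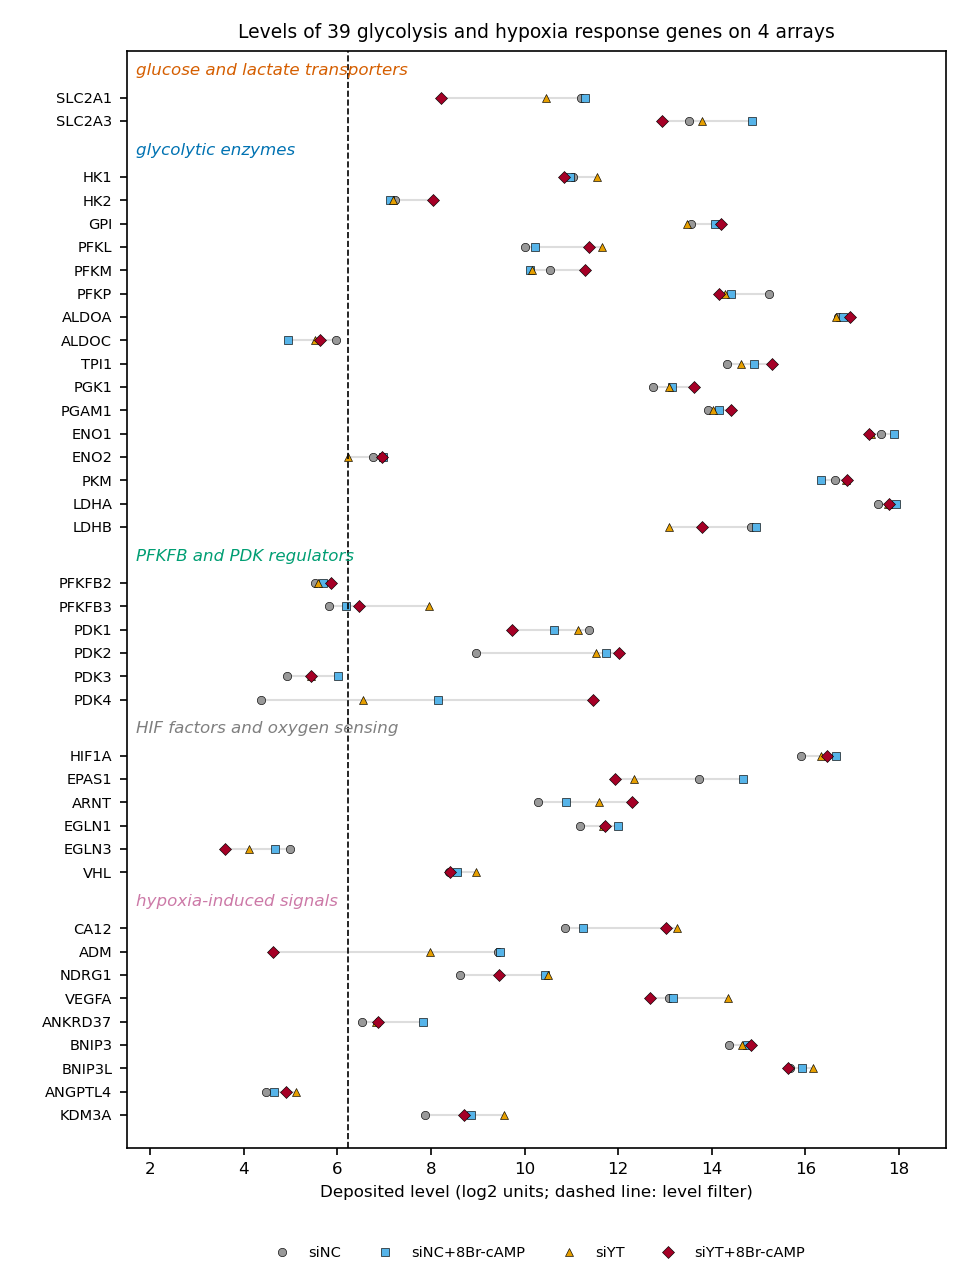
Levels of the 39 measured members (rows, by role) on the 4 arrays in deposited log2 units, 1 point per group; the grey line joins the lowest and the highest array and the dashed line is the level filter of 6.22. The points of most enzymes lie close together, while ADM, PDK4, PDK2, SLC2A1 and EPAS1 are spread widely, and positions of different genes are not comparable.

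The glucose transporters were lowest where YAP/TAZ siRNA and 8Br-cAMP were combined. SLC2A1, the widely expressed glucose importer GLUT1, was at 11.22 in siNC, 11.29 in siNC+8Br-cAMP, 10.47 in siYT and 8.21 in siYT+8Br-cAMP. The last array stood below the other 3, so that the siRNA difference was -0.75 without and -3.08 with 8Br-cAMP, an 8.43-fold lower level in the second case. SLC2A3, the high-affinity importer GLUT3, was at 13.51, 14.86, 13.79 and 12.94 in the same order. It was 2.55-fold higher with 8Br-cAMP after siNC and 1.81-fold lower after siYT, which is under the threshold. The siRNA difference with 8Br-cAMP was -1.93, a call, against 0.28 without it.

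The glycolytic enzymes held 3 called members, PFKL, PFKM and LDHB. The class median siRNA difference was -0.03 without and 0.21 with 8Br-cAMP, beside 0.02 and 0.06 over all genes. Among the 16, PFKL was called higher and LDHB lower without 8Br-cAMP, and PFKL and PFKM higher and LDHB lower in its presence. Over all genes 7.6% were called higher and 7.32% lower without 8Br-cAMP, and 5.52% and 5.94% with it. After siNC none of the 16 was called for 8Br-cAMP, with a median of 0.16 beside -0.03 over all genes. After siYT 1 was called, and 12 of 16 were above 0, with a median of 0.34 beside -0.02 over all genes. Over all genes 4.32% were called higher and 3.74% lower after siNC, and 4.06% and 4.15% after siYT. Counts of 0 or 1 of 16 are near these shares. The size of the enzymes' differences, regardless of direction, had a median of 0.32, 0.42, 0.29 and 0.46 in the 4 comparisons, in the order just given, beside 0.43, 0.42, 0.39 and 0.37 over all genes. All genes include many under the filter, so the closer comparison is by level. The 8 enzymes with a mean level of at least 14 had median sizes of 0.22, 0.33, 0.29 and 0.21, smaller than the 0.49, 0.54, 0.37 and 0.41 of all 373 genes at that level. Of these 8, LDHB was the 1 called in either siRNA comparison, while 26.3% and 22.8% of the 373 genes were called without and with 8Br-cAMP. The 5 enzymes with a mean from 10 to 14 had 0.40, 0.46, 0.42 and 0.71, beside 0.61, 0.51, 0.44 and 0.45 of 2685 genes. HK2 and ENO2, between the filter and 10, had 0.28, 0.47, 0.16 and 0.79, beside 0.55, 0.48, 0.42 and 0.41. From 10 to 14 the enzymes' size was thus the larger for 8Br-cAMP after siYT. In the lowest band, the 0.79 for that comparison has no usable size. Both ENO2 levels in it, 6.23 and 6.96, and the siYT level of HK2, 7.20, are under the negative control percentile.

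The enzymes are given in the order of the pathway. HK1, the housekeeping hexokinase, was at 11.04, 10.97, 11.54 and 10.83 in siNC, siNC+8Br-cAMP, siYT and siYT+8Br-cAMP, an order kept in what follows. HK2, the inducible hexokinase, was at 7.23, 7.12, 7.20 and 8.04, highest in the combined treatment by 0.92 over siNC+8Br-cAMP, which was not called. GPI, the glucose phosphate isomerase, was at 13.56, 14.08, 13.48 and 14.19, higher with 8Br-cAMP by 0.52 and 0.71.

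The phosphofructokinases, which catalyse the committed step, differed by isoform. PFKL, the liver type, was at 10.00, 10.23, 11.65 and 11.38. Both siYT arrays lay above both siNC arrays, by 3.12-fold without and 2.21-fold with 8Br-cAMP. PFKM, the muscle type, was at 10.55, 10.11, 10.16 and 11.30. It was called in the combined treatment, 2.28-fold above siNC+8Br-cAMP and 2.21-fold above siYT, and its difference between the siRNAs without 8Br-cAMP was -0.40. PFKP, the platelet type, was at 15.22, 14.42, 14.28 and 14.16, highest in siNC by 0.80 or more, and was not called.

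The enzymes of the lower pathway were mostly within 1 unit on all arrays. ALDOA, the main aldolase, was at 16.70, 16.80, 16.66 and 16.95, while its relative ALDOC was between 4.95 and 5.97, under the filter. TPI1, the triose phosphate isomerase, was at 14.33, 14.90, 14.63 and 15.29, and PGK1, the first enzyme of the pathway to yield ATP, at 12.74, 13.16, 13.08 and 13.62. For both the combined treatment was highest and siNC lowest, with no difference called. PGAM1, the phosphoglycerate mutase, followed the same order of groups between 13.92 and 14.41.

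ENO1, the ubiquitous enolase, was at 17.62, 17.89, 17.41 and 17.37, with siRNA differences of -0.21 and -0.53. ENO2, the neuronal enolase, was at 6.76, 6.97, 6.23 and 6.96, near the filter and with 3 levels under the negative control percentile. PKM, the pyruvate kinase of most tissues, was at 16.64, 16.34, 16.86 and 16.90, a range within which no difference was called. The printed ENO1 and PGK1 promoters thus belong to genes whose arrays lay within 1 unit.

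The 2 lactate dehydrogenase subunits, which interconvert pyruvate and lactate, differed. LDHA, the subunit favoured in lactate production, was at 17.55, 17.95, 17.76 and 17.78. Its largest difference was 0.40, for 8Br-cAMP after siNC. LDHB, the subunit of the heart form, was at 14.84, 14.94, 13.10 and 13.79. Both siYT arrays lay below both siNC arrays, by 3.35-fold without and 2.21-fold with 8Br-cAMP, so LDHB was called in both media. PFKL and LDHB were the enzymes called in both media.

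Among the regulators of glycolytic flux, PDK4 differed most with 8Br-cAMP after both siRNAs. The pyruvate dehydrogenase kinases PDK1 to PDK4 phosphorylate and switch off pyruvate dehydrogenase, and so hold back the conversion of pyruvate to acetyl-CoA. PDK4, the kinase induced by fasting, was at 4.36 in siNC, 8.14 in siNC+8Br-cAMP, 6.56 in siYT and 11.45 in siYT+8Br-cAMP. The pair of 8Br-cAMP arrays stood above the pair without it, by 3.79 after siNC and by 4.90 after siYT. Both levels without 8Br-cAMP, 4.36 and 6.56, are under the negative control percentile, so with that percentile as the floor the differences are at least 1.20 and at least 4.16. The siRNA call without 8Br-cAMP rests on these same levels and has no usable size. With 8Br-cAMP, where both values are above it, PDK4 was 9.92-fold higher in siYT+8Br-cAMP than in siNC+8Br-cAMP. PDK4 was the member called for 8Br-cAMP after both siRNAs, 1 higher and 0 lower of 39, beside 1.74% of all genes called higher and 1.31% called lower.

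PDK2, a broadly expressed kinase, was at 8.97 in siNC and at 11.74, 11.53 and 12.02 on the other 3 arrays. It was thus low on 1 array, 6.83-fold higher with 8Br-cAMP after siNC and 5.89-fold higher with YAP/TAZ siRNA alone, and both of these calls use that array. PDK1, the kinase best known as a HIF target, ran the other way at 11.37, 10.64, 11.14 and 9.73. It was 2.66-fold lower with 8Br-cAMP after siYT, a call, and lower by 0.73 after siNC. PDK3 was between 4.92 and 6.01, under the filter.

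The PFKFB enzymes make and remove fructose 2,6-bisphosphate, an activator of phosphofructokinase. PFKFB3, whose product favours its synthesis, was at 5.83, 6.19, 7.95 and 6.47. It was high in siYT alone, by at least 1.00 over siNC with the negative control percentile as the floor, and lower by at least 0.97 in siYT+8Br-cAMP. PFKFB2 was between 5.53 and 5.86, under the filter.

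**Figure D2:**
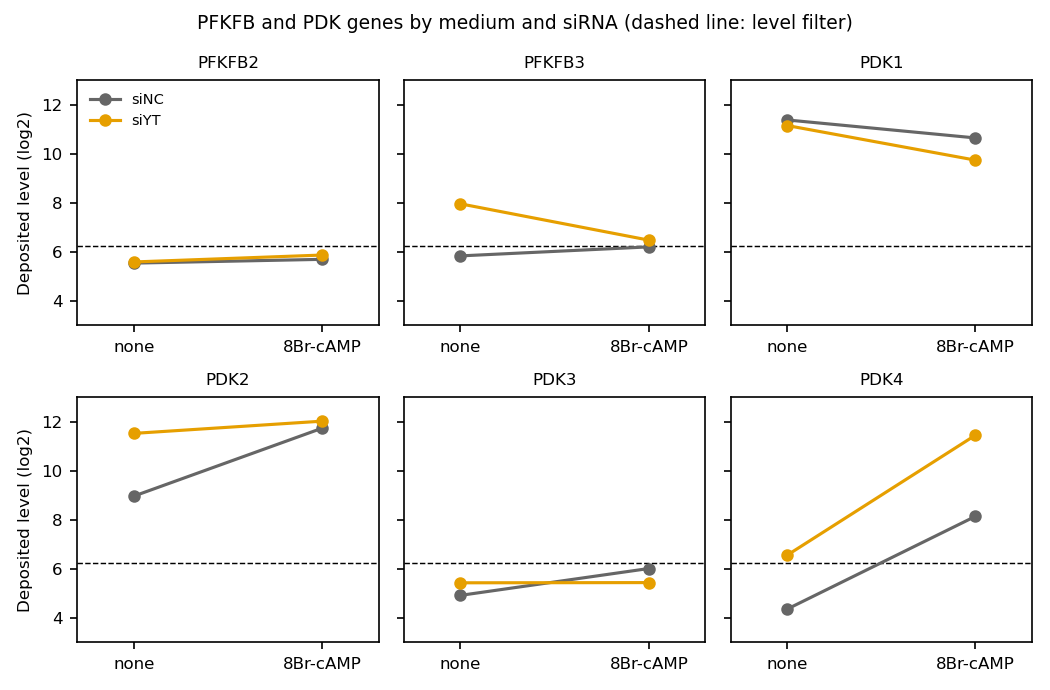
Deposited log2 levels of the 6 measured PFKFB and PDK genes without and with 8Br-cAMP, 1 array per point; grey is siNC, orange is siYT, lines join the arrays of an siRNA and the dashed line is the level filter of 6.22. PDK4 is higher with 8Br-cAMP after both siRNAs, PDK2 is low in siNC alone and PFKFB3 is high in siYT alone.

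Among the HIF subunits, EPAS1 was lower and ARNT higher after YAP/TAZ siRNA in both media. EPAS1, which encodes HIF-2α, was at 13.73, 14.67, 12.33 and 11.93. Both siYT arrays lay below both siNC arrays, 2.63-fold without and 6.70-fold with 8Br-cAMP. ARNT, the shared partner HIF-1β, was at 10.28, 10.88, 11.58 and 12.31, with both siYT arrays above both siNC arrays, by 2.47-fold and 2.68-fold. HIF1A was at 15.92, 16.65, 16.34 and 16.45, with no call. HIF activity is set mainly through the stability of the α proteins, which these arrays do not measure.

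The oxygen sensors differed less. EGLN1, the main HIF prolyl hydroxylase PHD2, was at 11.18, 11.99, 11.67 and 11.71, and VHL, which marks hydroxylated HIF for destruction, at 8.38, 8.56, 8.96 and 8.41. EGLN3, a hydroxylase that hypoxia induces, was at 4.98, 4.67, 4.12 and 3.60, all under the filter. None of these 3 was called.

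The hypoxia-induced signals differed most in the siRNA comparison without 8Br-cAMP, with a median size of 1.26 against 0.32 for the enzymes. In the siRNA comparison with 8Br-cAMP the sizes were 0.50 against 0.42, and for 8Br-cAMP they were 0.37 against 0.29 after siNC and 0.52 against 0.46 after siYT. Of 9 measured signals, CA12, NDRG1, VEGFA and KDM3A were called higher after YAP/TAZ siRNA without 8Br-cAMP, beside 7.6% of all genes, and ADM lower, beside 7.32%. The median of 0.64 there is the difference of ANGPTL4, which is under the filter, and over the 8 signals with a mean over the filter it was 0.87. With 8Br-cAMP CA12 was called higher, beside 5.52% of all genes, and ADM lower, beside 5.94%, with a median of -0.30. CA12, a membrane carbonic anhydrase that regulates pH, was at 10.87, 11.25, 13.27 and 13.02. Both siYT arrays lay above both siNC arrays, by 5.26-fold without and 3.42-fold with 8Br-cAMP, and 8Br-cAMP made a difference of 0.37 and -0.25. CA12 was the signal called higher in both media.

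ADM, which encodes the vasodilator peptide adrenomedullin, was at 9.44 in siNC, 9.49 in siNC+8Br-cAMP, 7.99 in siYT and 4.63 in siYT+8Br-cAMP. It was 2.74-fold lower with YAP/TAZ siRNA alone and stood at background in the combined treatment. There the level was lower than in siNC+8Br-cAMP by at least 2.51 units and lower than in siYT by at least 1.01, with the negative control percentile as the floor. ADM was the signal called lower in both media.

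NDRG1, a stress and differentiation protein, was at 8.61, 10.43, 10.51 and 9.45. Each single treatment stood above siNC, by 3.52-fold for 8Br-cAMP and 3.72-fold for YAP/TAZ siRNA, and the combined treatment was 2.08-fold lower than YAP/TAZ siRNA alone. KDM3A, a histone H3K9 demethylase, was at 7.86, 8.86, 9.56 and 8.71. It was 3.25-fold higher in siYT than in siNC, and its 8Br-cAMP difference after siNC of 1.00 lay at the threshold and was no longer called after centring (0.96), after loess (0.96) or when 32 was added to the linear value (0.91). VEGFA, the angiogenic growth factor, was at 13.08, 13.18, 14.34 and 12.68, high in siYT alone by 2.39-fold and 3.16-fold lower when 8Br-cAMP was added to it.

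ANKRD37, a small ankyrin repeat protein, was at 6.53, 7.82, 6.83 and 6.86. It was called higher with 8Br-cAMP after siNC, and since 3 of the 4 values lie under the negative control percentile this difference is at least 0.88. BNIP3 and BNIP3L, receptors that mark mitochondria for autophagy, were between 14.37 and 14.84 and between 15.64 and 16.16, with no call. ANGPTL4, an inhibitor of lipoprotein lipase, was between 4.49 and 5.12, under the filter. Of the printed promoters with a HIF core, those of ADM and KDM3A thus stand before genes that differed in opposite directions with YAP/TAZ siRNA alone.

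**Figure D3:**
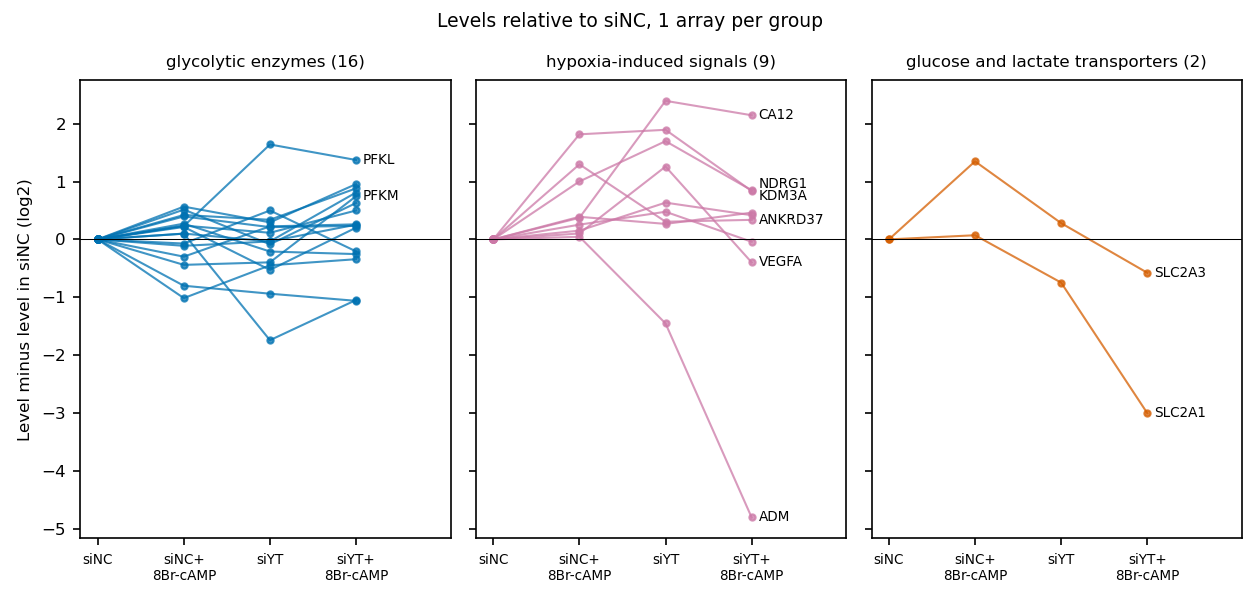
Level minus the level in siNC (log2) for the 16 enzymes, 9 hypoxia-induced signals and 2 transporters; each line joins the 4 arrays of 1 gene and has no time order. The enzymes scatter around 0, while NDRG1, KDM3A and VEGFA are higher in siYT than in siYT+8Br-cAMP, and ADM and SLC2A1 are lowest in siYT+8Br-cAMP.

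Over the 39 members, 9 were called higher after YAP/TAZ siRNA without 8Br-cAMP, beside 7.6% of all genes, and 3 lower, beside 7.32%. With 8Br-cAMP, 5 were called higher, beside 5.52%, and 5 lower, beside 5.94%. In both media 4 were called higher, PFKL, PDK4, ARNT and CA12, beside 3.44% of all genes, and 3 lower, LDHB, EPAS1 and ADM, beside 3.89%. For 8Br-cAMP after siNC 6 members were called higher, beside 4.32%, and 0 lower, beside 3.74%. After siYT 2 were called higher, beside 4.06%, and 6 lower, beside 4.15%. All genes include many under the filter, which cannot be called. Among the 8894 genes with a mean over the filter, 26.6% were called in either direction for the siRNA without and 20.3% with 8Br-cAMP, and 14.3% and 14.6% for 8Br-cAMP after siNC and siYT. The 34 members with such a mean gave 35.3%, 29.4%, 17.6% and 23.5%. These shares are 12, 10, 6 and 8 members, so each exceeds the share of genes of measurable level by only a few members. The 4 comparisons share arrays and are not separate results, and the difference was not tested.

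**Figure D4:**
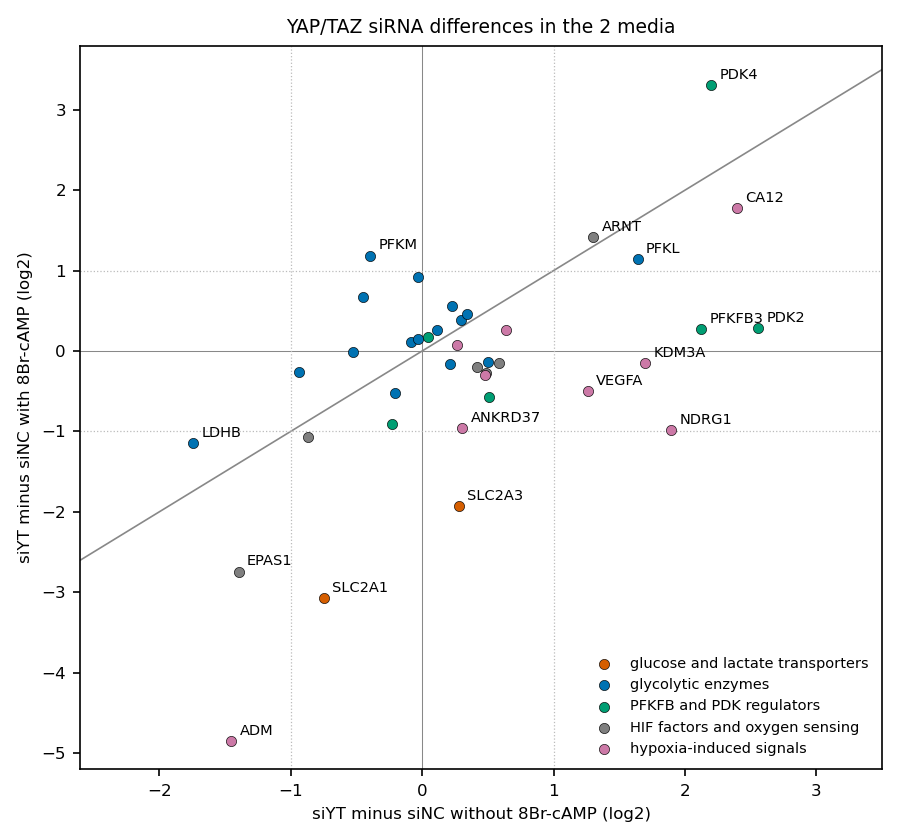
YAP/TAZ siRNA difference without 8Br-cAMP (x axis, log2) against that with 8Br-cAMP (y axis, log2) for the 39 members, coloured by role; the line marks equal differences, dotted lines mark 1 and -1, and the 2 axes share no array. Enzymes cluster near the origin except PFKL, PFKM and LDHB, and NDRG1, VEGFA and KDM3A lie to the right and below 0.

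The enzymes and the hypoxia-induced signals parted most clearly in how the treatments combined. The difference of differences subtracts the siRNA difference in plain medium from the one in 8Br-cAMP medium. Subtracting the 8Br-cAMP difference in siNC cells from the one in siYT cells gives the same number. It uses all 4 arrays, each of which enters 2 of the comparisons above, so it is not separate evidence. A low level on the siNC array alone is enough for a value below 0. Each of the 9 measured signals had a value below 0, from -3.40 for ADM to -0.20 for BNIP3, with a median of -1.27, whereas 12 of 16 enzymes were above 0, with a median of 0.19. Over all genes the median was 0.01 and 49.4% were below 0. These counts include ANGPTL4 and ALDOC, whose levels and hence signs are at background, and the signals' median is the value of ANKRD37. Over members with a mean over the filter, 8 of 8 signals were below 0, with a median of -1.51, and 11 of 15 enzymes above 0, with a median of 0.19, while 52.8% of all such genes were below 0. These 11 still include ENO2 (0.52), with 3 levels under the negative control percentile, and HK2 (0.96), with 1. The 5 signals called lower, beside 4.82% of all genes, were ADM, NDRG1 (-2.87), KDM3A (-1.85), VEGFA (-1.76) and ANKRD37 (-1.27). Of 16 enzymes 1 was called, PFKM, higher at 1.58, beside 3.57% of all genes.

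The value of -3.40 for ADM uses a level under background. ANKRD37 has 3 such levels, and NDRG1, KDM3A and VEGFA have none. Both transporters were also called lower, at -2.33 for SLC2A1 and -2.21 for SLC2A3, as were PDK2 (-2.27), EPAS1 (-1.35) and PFKFB3 (-1.85, with 3 levels under background). PDK4 was called higher at 1.11, with 2 levels under background. In all, 10 members were called lower, beside 4.82% of all genes, and 2 higher, beside 3.57%. Among genes with a mean over the filter 13.8% were called in either direction and among the 34 members 35.3%. The balance over all genes depends on scaling: 42.5% of called genes were higher as deposited and 53.9% after centring each array, where the median of all genes moved to 0.10. The 10 lower and 2 higher members stayed called under centring and under cyclic loess.

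Genes outside the list but on the same pathways were examined in a pair of further lists. These lists were read from the same 4 arrays and chosen with earlier results known, so they are not separate evidence. Of 27 measured further HIF pathway genes, 24 had a difference of differences below 0, with a median of -0.62, and of the 23 with a mean over the filter 21 did, with a median of -1.08. In that quantity 12 of the 27 were called lower, beside 4.82% of all genes, and 0 higher, beside 3.57%. The 12 include KDM4B and KDM4C, with 3 and 2 levels under the negative control percentile. In the siRNA comparison 10 were called higher and 2 lower in plain medium, beside 7.6% and 7.32%. In 8Br-cAMP medium PLOD2 was called higher and 4 genes lower, beside 5.52% and 5.94%. For 8Br-cAMP 2 were called higher and 0 lower after siNC, beside 4.32% and 3.74%, and 0 higher and 4 lower after siYT, beside 4.06% and 4.15%. PLIN2, which coats lipid droplets, was at 6.18, 6.94, 8.81 and 7.05, high in siYT alone, with its siNC level under background. P4HA1, a collagen prolyl hydroxylase, was at 12.84, 13.68, 15.27 and 14.50, 5.42-fold higher with YAP/TAZ siRNA alone. BHLHE41, a transcriptional repressor, was at 11.05, 10.21, 12.85 and 10.80.

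STC2, CITED2 and PLOD2 were not called in the difference of differences. STC2, a secreted glycoprotein, was at 14.30, 13.44, 11.45 and 10.52, and CITED2, which competes with HIF for a coactivator, at 15.32, 15.19, 14.06 and 13.56. Both siYT arrays were lower than both siNC arrays for these 2 genes. PLOD2, a collagen lysyl hydroxylase, was at 16.35, 17.16, 17.61 and 18.42, higher with YAP/TAZ siRNA in both media, and its difference of differences was -0.01. WSB1, an E3 ligase component, was at 9.88, 11.48, 11.33 and 11.85, low in siNC alone, and was among the 12 called lower, at -1.08.

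Of 26 measured further glycolysis genes, 15 had a difference of differences above 0, with a median of 0.13, and of the 16 with a mean over the filter 8 were above and 8 below 0. In that quantity SLC2A12 and PDHA1 were called higher, beside 3.57% of all genes, and TIGAR lower, beside 4.82%. After YAP/TAZ siRNA 3 were called higher and 2 lower in each medium, beside 7.6% and 7.32% of all genes without 8Br-cAMP and 5.52% and 5.94% with it. For 8Br-cAMP 2 were called higher after siNC, beside 4.32%, and 3 after siYT, beside 4.06%. After either siRNA 0 were called lower, beside 3.74% of all genes after siNC and 4.15% after siYT. These counts are 3 or fewer of 26 genes, and their distance from these shares was not tested. GAPDH, the glyceraldehyde phosphate dehydrogenase, was at 18.61, 18.93, 18.73 and 18.79 with no call. SLC2A12, a further glucose transporter, was at 6.11, 6.23, 7.15 and 8.75. It was highest in the combined treatment, where SLC2A1 and SLC2A3 were lowest, and its other 3 levels were under background. BPGM, which makes 2,3-bisphosphoglycerate, was at 9.13, 10.29, 10.96 and 11.38, higher with YAP/TAZ siRNA in both media. HKDC1, a hexokinase relative, was at 7.56, 6.95, 5.96 and 6.04, with both siYT levels under background.

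MPC1, a subunit of the carrier that brings pyruvate into mitochondria, was at 8.87, 9.39, 9.60 and 11.10. In the combined treatment MPC1 was called higher against both arrays that differ by 1 treatment. ADPGK, an ADP-dependent glucokinase, was at 8.21, 9.25, 8.15 and 9.08, higher with 8Br-cAMP by 1.04 and 0.93. DLAT, a subunit of the pyruvate dehydrogenase complex, was at 6.53, 7.17, 6.06 and 7.09, with 2 levels under background.

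**Figure D5:**
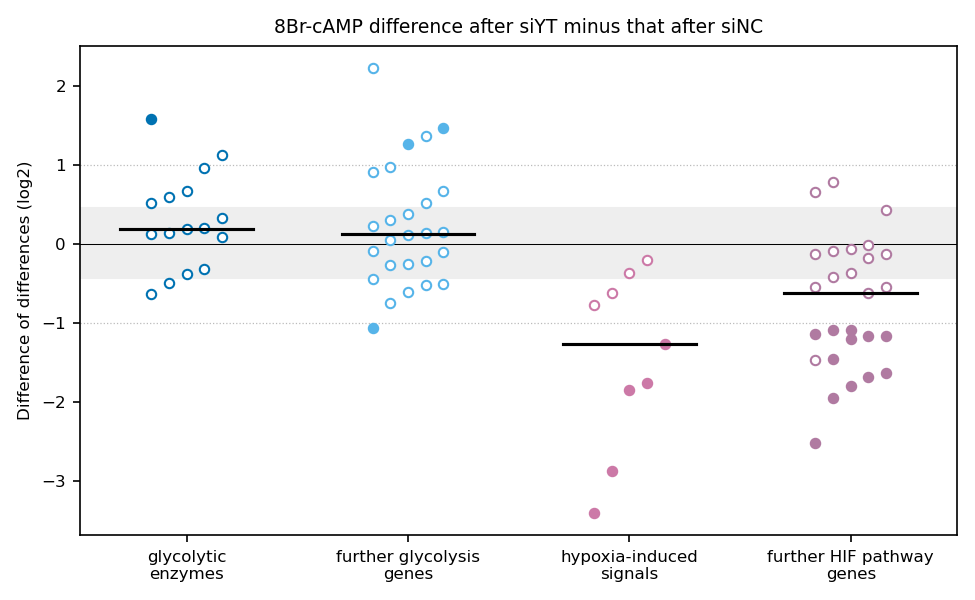
Difference of differences (log2) for the enzymes, the further glycolysis genes, the hypoxia-induced signals and the further HIF pathway genes; each circle is a gene, filled where called, bars are medians (0.19, 0.13, -1.27 and -0.62) and the grey band is the middle 50% of all genes. All 9 signals lie below 0 and most enzymes lie within or above the band.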

How the data were processed

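Per the labels, RNA was hybridised to Clariom S Human arrays, and the authors made log2 signals with Expression Console (Affymetrix) and its RMA method, per the submitters' processing notes. Software versions are not given in the sources used here. Deposited log2 values spanned 1.39 to 19.36, above 16, the log2 of a 16-bit scanner's maximum, so a further rescaling is possible and folds hold only if the units are log2 signals. Probe sets naming exactly 1 gene were averaged per gene (17709 probe sets, 17687 genes). The 4 arrays, 1 per group, were compared by subtraction. With no replicates no test was run, and a model of the 4 arrays, whose only error would be the interaction, was not fitted. The arrays' number limits the precision. Calls needed a size of 1 and a higher value of at least 6.22. The difference of differences and the calls in both media or after both siRNAs used the highest array. Members and lists were chosen with earlier results of these data known. All members are named. From each further list the text names up to 4 called genes with the largest mean siRNA difference and up to 4 with the largest mean 8Br-cAMP difference. GAPDH, PDHA1 and TIGAR were added after their values were seen. Alternatives were no filter, a filter at 6.95 (the negative controls' 95th percentile over the 4 arrays), centring, cyclic loess (limma 3.58.1, R 4.3.3) and log2 of the linear value plus 32. Promoters came from RefSeq (GRCh38.p14).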

Additional observations from a re-analysis of the deposited data

Results flagged for a closer look

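With 1 array per group, members are given here when a treatment's difference was at least 0.5 one way in one setting and at least 0.5 the other way in the second, with a called difference of differences; the difference between the settings was not tested. NDRG1 differed by 1.90 for YAP/TAZ siRNA without and by -0.98 with 8Br-cAMP, and by 1.82 for 8Br-cAMP after siNC and -1.06 after siYT, a difference of differences of -2.87. SLC2A3 differed by 1.35 for 8Br-cAMP after siNC and by -0.86 after siYT, a difference of -2.21. VEGFA differed by 1.26 for YAP/TAZ siRNA without and by -0.50 with 8Br-cAMP, a difference of -1.76. KDM3A differed by 1.00 for 8Br-cAMP after siNC and by -0.85 after siYT, a difference of -1.85. All 4 genes were over the negative control percentile on every array. The values above 0 each use the single siNC array. The treatment differences below 0 each use the single siYT+8Br-cAMP array, and each difference of differences uses all 4 arrays.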

How the results depend on the processing

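No replicate could be left out, since each group is 1 array, and no member had several probe sets, so the alternative of the brightest probe set did not apply. The counts of called members stayed within 1.5 times of the main count under all 5 alternatives. PDK4 was not called for YAP/TAZ siRNA without 8Br-cAMP with the filter at 6.95, and HK2 was called higher in the difference of differences after centring and after cyclic loess (13 members in place of 12). Without a filter, 14 members were called there, 3 higher and 11 lower, beside 1409 and 1347 of the 17687 genes. For 8Br-cAMP after siNC 8 were called without a filter, 7 higher and 1 lower, beside 997 and 1088 genes. No called member changed direction. The 9 signals below 0 and 12 enzymes above 0 in the difference of differences were the same in number after centring, loess and log2 of the linear value plus 32, which were examined after the data were seen. The signals' median difference of differences was -1.03 with log2 of the linear value plus 32 and -1.51 over the members with a mean over the filter. Over those members their siRNA median without 8Br-cAMP was 0.87. As a mean over members the signals' differences were -0.63 for the siRNA with 8Br-cAMP, 0.60 for 8Br-cAMP after siNC and -0.85 after siYT. The cause of these shifts was not tested. The enzymes' medians moved by less than 0.2 under every alternative run. Levels near the negative controls limit what can be said of ADM, PDK4, PFKFB3 and ANKRD37.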

Other observations

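The arrays on which members were lowest or highest were counted after values under 6.95, the negative controls' 95th percentile over the 4 arrays, were set to it, and genes with a tie were left out. Of the 30 members with a single lowest array, 14 were lowest in siNC (46.7%, beside 32.9% of the 7391 such genes), 10 in siYT+8Br-cAMP, and 3 each in the other two groups. Among the 7 such signals 4 were lowest in siNC and 3 in siYT+8Br-cAMP, and of the 8 with a single highest array 5 were highest in siYT (62.5%, beside 23.3% of genes). Of 15 such enzymes 8 were highest in siYT+8Br-cAMP (53.3%, beside 27.9% of genes). These counts are descriptions of 4 arrays and were not tested.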
